A study of Mus musculus with 6 samples.

Results

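The genes described here take a cell from growth arrest through DNA replication and mitosis. They are 44 named genes, picked by symbol with earlier results of these data known, and found among the 54532 genes of a liver read count table. By the known role of their products, 23 act in G1 or S phase (D-type and E-type cyclins, E2F factors, origin licensing and DNA synthesis) and 21 act in G2 or mitosis (cyclins A and B, mitotic kinases, spindle and cytokinesis proteins). All 44 had at least 1 count in each of the 6 livers, and 43 were abundant enough to test. The exception was the checkpoint kinase gene Bub1, with 7, 19 and 35 counts in the control livers and 5, 5 and 2 counts in the knockout livers.

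Messenger RNA was measured in whole livers of 3 control and 3 knockout mice on the C57BL/6J/Rj background. Knockout mice were LysMcre/+ Cd44flox/flox, in which Cre expressed from the lysozyme gene of myeloid cells (Lyz2) deletes the floxed hyaluronan receptor gene Cd44, and controls were LysM+/+ Cd44flox/flox littermates. Both groups therefore carried the floxed Cd44 alleles, and both drank an ethanol liquid diet (Lieber-DeCarli, 6% by volume) for 10 days. A single gavage of 5 g/kg ethanol followed on day 11, and livers were taken 9 hours after it. Livers with Cre alone and livers without ethanol were not analysed here, so Cre, the altered Lyz2 allele and the loss of Cd44 cannot be told apart, and no value gives the effect of ethanol. The sex and age of the mice are not given in the sources used here.

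In a quiescent cell the retinoblastoma pocket proteins hold E2F factors inactive on the promoters of replication genes. D-type and E-type cyclins with their kinases release E2F, and the cell then loads the MCM helicase onto replication origins, makes deoxynucleotides and copies its DNA. Cyclins A and B act with CDK1 in G2, and genes needed for mitosis are switched on late, through the CHR promoter element and the factors MuvB, B-MYB and FOXM1. Adult hepatocytes rarely divide and re-enter the cycle after injury or loss of liver mass, and leukocytes of the liver can divide too.

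Library totals ran from 18428224 to 24042917 counts, so that 3 counts in a library correspond to 0.119 to 0.148 CPM (counts scaled to a common library size, with trimmed mean of M values, or TMM, factors). Cd44 checked the labels, at 32.6, 34.7 and 26.4 CPM in the controls and 2.11, 1.92 and 3.00 CPM in the knockouts. This is a log2 fold change of −3.73 (standard error, SE, 0.20, adjusted p = 9.1e-05 in edgeR), with groups that do not overlap. Of 14758 genes tested, 1933 were lower and 1751 higher in the knockout livers, and the median log2 fold change over all of them was −0.01. With scaling by library totals these were 3693 and 904, and the median was −0.26, so that each fold change moved downward by about that much. Whole liver holds many cell types, and in such bulk RNA fewer dividing cells and less of a transcript in each cell cannot be told apart. The labels number the mice and state no pooling, and the p-values measure the spread between these 6 livers. Of the 44 genes, 14 share exon positions with a gene on the other strand (Ccnd1, Ccnd2, Ccnd3, Ccne2, Mcm7, Gins2, Chaf1a, Rfc4, Ccna2, Plk1, Cdc20, Kif20a, Nusap1 and Prc1). The strand setting of the counting is not given in the sources used here, so reads of such pairs cannot be told apart and their values are uncertain.

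Of the 44 cell cycle genes, every one that changed was lower in the knockout livers. At an adjusted p under 0.05, 18 of the 44 passed, where 13.1% of all genes tested were called lower and 11.9% higher. In G1 and S, 10 of 23 passed, among them the E-type cyclins Ccne1 and Ccne2, the origin factors Gins2 and Cdc6 and the chromatin assembly gene Chaf1a, with a class median log2 fold change of −0.97. In G2 and M, 8 of 21 passed, among them Cdk1, Top2a and Mki67, with a median of −2.03 over the 20 tested. No member was higher in edgeR at an adjusted p under 0.05, nor at an unadjusted one. DESeq2 and limma-voom likewise gave 0 at the adjusted threshold, and each gave 1 at an unadjusted p under 0.05. The counts need a caution that concerns the filter level of 0.456 CPM, which was applied to CPM without TMM factors. Of the 43 tested members, 16 entered the test with fewer than 3 knockout livers at that level. It was the control livers, all 3 at that level, that carried these 16 through the filter. Of those 16, 10 passed, and of the 27 with all 3 knockout livers at that level 8 passed.

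**Figure D1:**
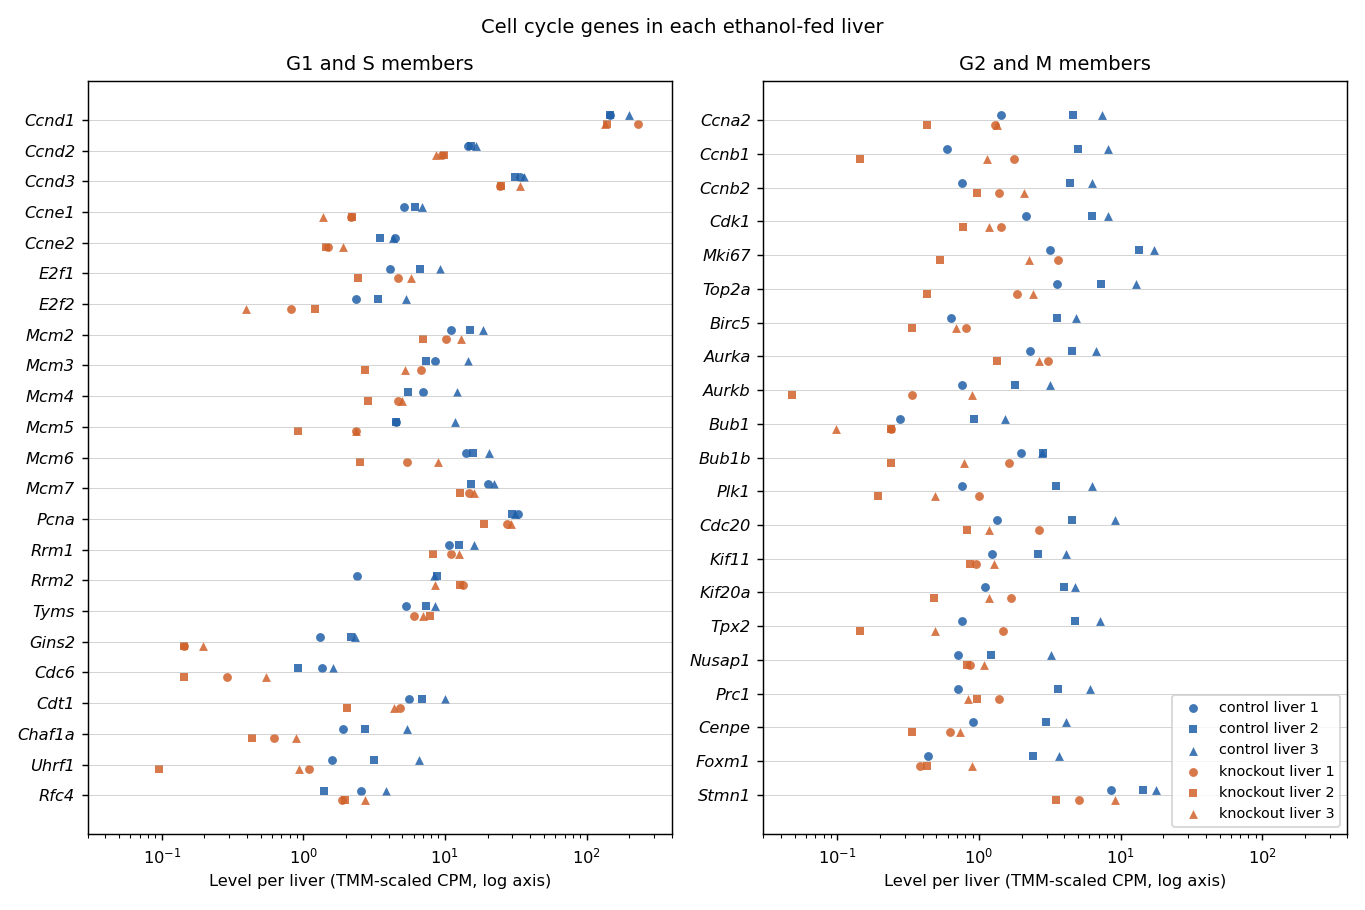
Level of each cell cycle gene in each of the 6 livers, in CPM on a log axis, with G1 and S genes on the left and G2 and M genes on the right (blue, 3 control livers; orange, 3 knockout livers; marker shape gives the liver number). In the right panel control liver 1 (blue circles) stands below the other controls for all 21 genes and lies among the knockout livers for most of them.

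The D-type cyclins link growth signals to the cycle, and 1 of the 3 passed, Ccnd2. Ccnd1, cyclin D1, was the most abundant of all 44 genes per length, with a mean of 34.9 RPKM (CPM per kilobase of exon) in controls and 35.8 RPKM in knockouts. It stood at 147, 146 and 200.2 CPM in controls and 230.4, 140.0 and 135 CPM in knockouts, and knockout liver 1 was the highest of the 6 livers while the other two lay just below every control. Its log2 fold change was 0.04 (SE 0.23, adjusted p = 0.928), and this value was −0.25 without knockout liver 1 and −0.21 with scaling by library totals. Ccnd2, cyclin D2, stood at 14.6, 15.4 and 16.7 CPM in controls and 9.53, 9.85 and 8.72 CPM in knockouts. All 3 knockouts lay below all controls and the spread within each group was small, and Ccnd2 fell by 0.73 on the log2 scale (SE 0.13, adjusted p = 0.00526). Ccnd3, cyclin D3, stood at 34.1, 31.4 and 36.5 CPM in controls and 24.6, 24.9 and 33.9 CPM in knockouts. Knockout liver 3 reached the control range and Ccnd3 did not pass (log2 −0.29, SE 0.15, adjusted p = 0.191).

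Both E-type cyclins, which drive entry into S phase with CDK2, were lower in the knockout livers. Ccne1 (ENSMUSG00000002068, chromosome 7, 38097984 to 38107534, minus strand, GRCm38) stood at 5.12, 6.18 and 6.91 CPM in controls and 2.16, 2.21 and 1.38 CPM in knockouts. Ccne2 stood at 4.40, 3.48 and 4.30 CPM in controls and 1.49, 1.44 and 1.92 CPM in knockouts. For both genes the lowest control was above the highest knockout by a wide margin, with a log2 fold change of −1.66 for Ccne1 (SE 0.25, adjusted p = 0.0031) and of −1.33 for Ccne2 (SE 0.24, adjusted p = 0.00595). E2f2, an activator E2F, stood at 2.34, 3.38 and 5.30 CPM in controls and 0.814, 1.20 and 0.394 CPM in knockouts, and again no knockout reached a control (log2 −2.18, SE 0.45, adjusted p = 0.0101). The other activator measured, E2f1, did not pass (log2 −0.63, SE 0.37, adjusted p = 0.25), with knockout livers 1 and 3 inside the control range.

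Licensing factors prepare origins, and the MCM2 to MCM7 subunits form the ring of the replicative helicase. Mcm5 stood at 4.48, 4.54 and 11.8 CPM in controls and 2.35, 0.913 and 2.36 CPM in knockouts. Mcm6 stood at 14.2, 15.8 and 20.4 CPM in controls and 5.41, 2.50 and 8.86 CPM in knockouts. Neither gene overlapped between the groups, control liver 3 was the highest and knockout liver 2 the lowest for both, and both fell, by 1.88 for Mcm5 (SE 0.48, adjusted p = 0.0238) and 1.58 for Mcm6 (SE 0.38, adjusted p = 0.0177) on the log2 scale. Mcm7 stood at 20.2, 15.3 and 22.1 CPM in controls and 14.8, 12.7 and 16.0 CPM in knockouts, where knockout liver 3 exceeded control liver 2, and did not pass (log2 −0.40, SE 0.16, adjusted p = 0.109). The other ring genes did not pass either, with log2 fold changes of −0.56 for Mcm2 (SE 0.26, adjusted p = 0.148), −1.05 for Mcm3 (SE 0.36, adjusted p = 0.0651) and −0.97 for Mcm4 (SE 0.33, adjusted p = 0.0621), although Mcm3 and Mcm4 had groups that do not overlap. The calls on Mcm5 and Mcm6 were lost without control liver 3 (adjusted p = 0.0738 and 0.0625) and without knockout liver 1 (0.0542 and 0.0616).

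Gins2, a subunit of the GINS complex that activates the helicase, had the largest fold change of the 44 genes. Gins2 (ENSMUSG00000031821, chromosome 8, 120578633 to 120589304, minus strand, GRCm38) stood at 1.31, 2.17 and 2.30 CPM in controls and 0.144, 0.144 and 0.197 CPM in knockouts. These are 33, 45 and 53 counts against 3, 3 and 4 counts, so the knockout livers were close to the limit of 3 counts, and the pooled control level was 11.8 times the knockout level (95% interval 6.21 to 25.1, which covers counting error only). The fit gave a log2 fold change of −3.53 (SE 0.42, adjusted p = 0.0012). Cdc6, which loads the MCM ring, stood at 1.35, 0.918 and 1.61 CPM in controls and 0.287, 0.144 and 0.542 CPM in knockouts, with groups that do not overlap (log2 −1.98, SE 0.48, adjusted p = 0.0188). Its partner Cdt1 had groups that do not overlap but did not pass (log2 −0.99, SE 0.34, adjusted p = 0.0666). The Cdc6 call was lost without control liver 1 (adjusted p = 0.052), control liver 3 (0.0666) or knockout liver 1 (0.0696).

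Chromatin is rebuilt and its methylation copied behind the fork by the products of Chaf1a and Uhrf1. Chaf1a, the large subunit of chromatin assembly factor 1, stood at 1.90, 2.71 and 5.43 CPM in controls and 0.623, 0.433 and 0.886 CPM in knockouts. Uhrf1, which guides maintenance of DNA methylation, stood at 1.59, 3.14 and 6.56 CPM in controls and 1.10, 0.0961 and 0.936 CPM in knockouts. Control liver 3 was the highest and knockout liver 2 the lowest for both genes, without overlap of the groups, and on the log2 scale the change was −2.36 for Chaf1a (SE 0.47, adjusted p = 0.0091) and −2.39 for Uhrf1 (SE 0.71, adjusted p = 0.0398). Uhrf1 kept its call only without control liver 1 and lost it without any other liver (adjusted p 0.0588 to 0.15).

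Genes of the fork clamp and of nucleotide supply did not pass. Pcna, the sliding clamp of DNA polymerases, stood at 33.0, 29.6 and 31.5 CPM in controls and 27.3, 19.0 and 29.4 CPM in knockouts. Knockout liver 3 lay just below the lowest control and knockout liver 2 well below it, with a log2 fold change of −0.31 (SE 0.16, adjusted p = 0.201). Rfc4, of the clamp loader, gave −0.25 (SE 0.37, adjusted p = 0.663). Of the ribonucleotide reductase subunits, Rrm1 gave −0.31 (SE 0.21, adjusted p = 0.312) and Rrm2 0.84 (SE 0.42, adjusted p = 0.18). Rrm2 stood at 2.38, 8.74 and 8.38 CPM in controls and 13.4, 12.9 and 8.57 CPM in knockouts, with control liver 1 far beneath the rest and control liver 2 above knockout liver 3. Tyms, thymidylate synthase, gave a log2 fold change of −0.01 (SE 0.21, adjusted p = 0.979).

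**Figure D2:**
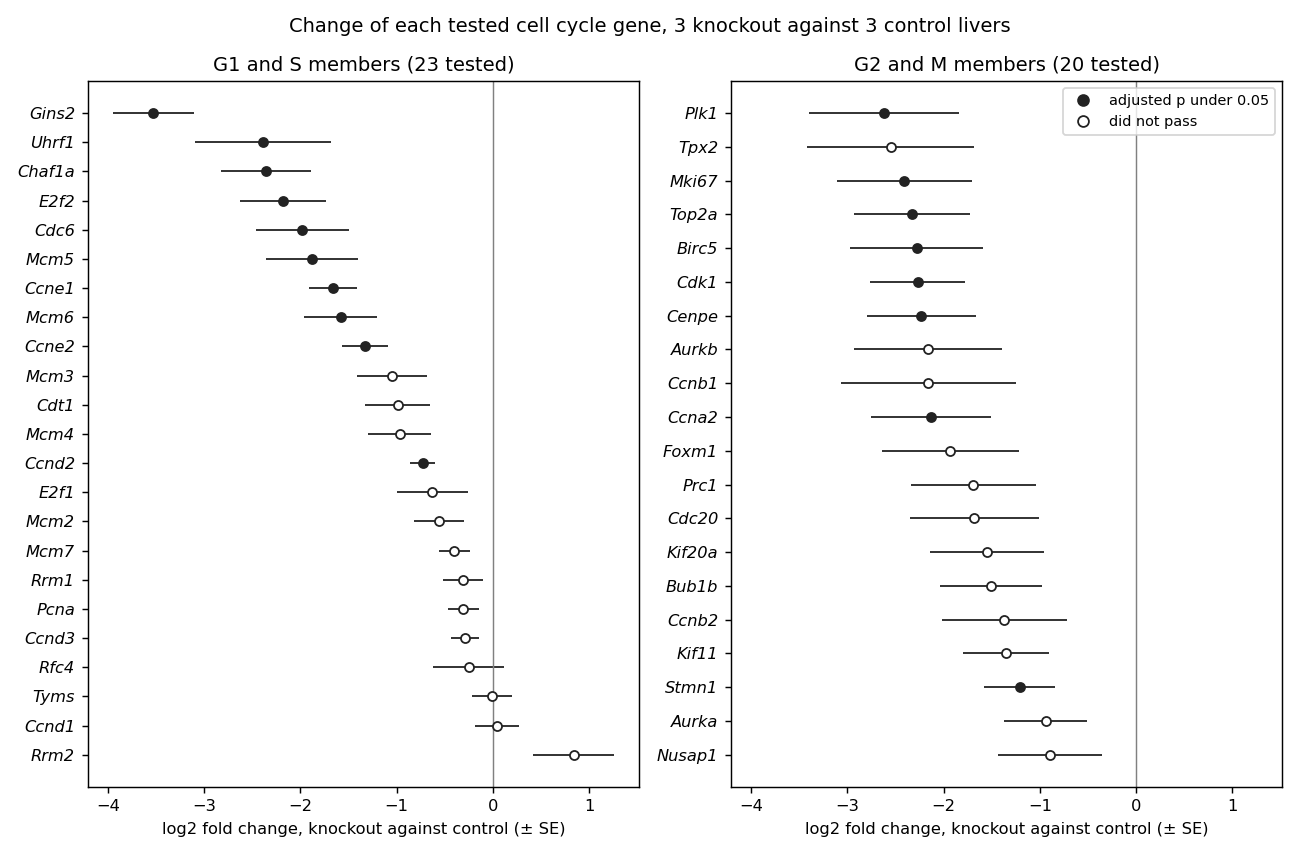
log2 fold change of each tested gene, 3 knockout against 3 control livers, with its standard error (filled points, adjusted p under 0.05; open points, not passed), for 23 G1 and S genes and 20 G2 and M genes. Of the 43 points 41 lie below 0, and the error bars of the G2 and M genes (median SE 0.63) are wider than those of the G1 and S genes (median SE 0.34).

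Promoters are shown for the members of each class with the smallest p that have a window in the RefSeq table (build GRCm38.p6), since genes of the 2 classes are known for different promoter elements. Such a window spans 250 bases before and 50 bases after a start site, and 33 of the 44 genes had one (18 G1 and S, 15 G2 and M). Searched on both strands were an E2F-type site (any of TTCCCGC and TTCGCGC and the variants TTGCCGC and TTGGCGC), a CHR element (TTTGAA or its variant TTCGAA) and a CCAAT box (CCAAT). Matches can share letters, since TTGGCGC after an A also holds a CCAAT box on the other strand. The sequences for Ccne1, Chaf1a and E2f2 below run from 200 bases before the start site to 30 after it, 5′ to 3′ on the gene's strand, with matches in capitals.
Ccne1 (chr7:38107461-38107690, minus strand): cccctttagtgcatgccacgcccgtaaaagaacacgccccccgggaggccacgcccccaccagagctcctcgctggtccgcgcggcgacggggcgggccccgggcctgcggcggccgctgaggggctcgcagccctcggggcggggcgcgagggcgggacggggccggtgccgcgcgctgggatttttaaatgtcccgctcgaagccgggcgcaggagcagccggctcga
Chaf1a (chr17:56040216-56040445, plus strand): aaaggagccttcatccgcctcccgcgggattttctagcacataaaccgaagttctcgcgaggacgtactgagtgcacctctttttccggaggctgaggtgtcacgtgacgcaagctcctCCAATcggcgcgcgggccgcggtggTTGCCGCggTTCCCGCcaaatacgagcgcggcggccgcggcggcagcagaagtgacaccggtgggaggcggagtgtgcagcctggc
E2f2 (chr4:136172074-136172303, plus strand): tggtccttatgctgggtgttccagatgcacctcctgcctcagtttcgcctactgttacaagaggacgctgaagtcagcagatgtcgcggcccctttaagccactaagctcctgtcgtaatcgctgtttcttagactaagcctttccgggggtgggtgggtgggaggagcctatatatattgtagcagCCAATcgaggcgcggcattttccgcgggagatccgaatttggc
The Ccne1 stretch holds none of these letters, the Chaf1a stretch holds 1 CCAAT box and 2 E2F-type sites, and the E2f2 stretch holds 1 CCAAT box. In E2f2 an E2F-type match 41 bases after the start site lies past the printed end. In the window nearest the gene's start, 12 of 18 G1 and S genes (66.7%) held an E2F-type site, 2 (11.1%) a CHR element and 11 (61.1%) a CCAAT box. Over all 32851 windows of the table these shares were 9.57%, 19.2% and 37.4%. Of the 33 genes, 5 had a further window, which is not counted here.

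In the G2 and M genes control livers 2 and 3 were high and control liver 1 stood near the knockouts. Control livers 2 and 3 were above every knockout liver in 21 of 21 G2 and M genes and in 16 of 23 G1 and S genes, against 26.5% of all genes tested. Control liver 1 was the lowest control in 21 of 21 G2 and M genes (14 of 23 in G1 and S, 37.3% of all genes), and in 15 of the 21 it was not above the highest knockout. Control liver 3 was the highest control in 20 of 21 (20 of 23 in G1 and S, 31.5% of all genes). The highest control was a median of 5.20 times the lowest in G2 and M, 1.75 times in G1 and S and 1.28 times over all genes tested. Groups therefore did not overlap, with the knockouts lower, in 6 of 21 G2 and M genes and in 14 of 23 G1 and S genes, where 22.5% of all genes tested were of that kind.

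CDK1 is the kinase of mitotic entry, and cyclins A and B are its partners. Cdk1 (ENSMUSG00000019942, chromosome 10, 69335146 to 69352938, minus strand, GRCm38) stood at 2.14, 6.23 and 8.12 CPM in controls and 1.44, 0.769 and 1.18 CPM in knockouts. Ccna2, cyclin A2, stood at 1.43, 4.59 and 7.43 CPM in controls and 1.29, 0.433 and 1.33 CPM in knockouts. Control liver 1 was the lowest control for both but stayed above the knockouts, narrowly for Ccna2. On the log2 scale the change was −2.27 for Cdk1 (SE 0.49, adjusted p = 0.0126) and −2.13 for Ccna2 (SE 0.62, adjusted p = 0.0366). The B-type cyclins did not pass. Ccnb1 stood at 0.595, 4.98 and 8.12 CPM in controls and 1.77, 0.144 and 1.13 CPM in knockouts (a log2 fold change of −2.16, SE 0.91, adjusted p = 0.119). Ccnb2 stood at 0.754, 4.40 and 6.30 CPM in controls and 1.39, 0.961 and 2.07 CPM in knockouts (a log2 fold change of −1.37, SE 0.65, adjusted p = 0.164). Control liver 1 lay within the knockout range for Ccnb1 and below it for Ccnb2, while controls 2 and 3 were far above it for both.

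Mki67, the proliferation antigen Ki-67 that coats mitotic chromosomes, stood at 3.17, 13.6 and 17.3 CPM in controls and 3.59, 0.529 and 2.27 CPM in knockouts. Top2a, the topoisomerase that untangles replicated DNA, stood at 3.53, 7.29 and 12.9 CPM in controls and 1.87, 0.433 and 2.41 CPM in knockouts. Knockout liver 1 exceeded control liver 1 for Mki67, and no knockout reached a control for Top2a. On the log2 scale the change was −2.41 for Mki67 (SE 0.70, adjusted p = 0.0375) and −2.33 for Top2a (SE 0.60, adjusted p = 0.0245).

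Among mitotic kinases and the chromosomal passenger complex, Plk1, the polo-like kinase of spindle assembly, stood at 0.754, 3.48 and 6.30 CPM in controls and 1.01, 0.192 and 0.492 CPM in knockouts. Birc5, survivin of the passenger complex, stood at 0.635, 3.53 and 4.87 CPM in controls and 0.814, 0.336 and 0.689 CPM in knockouts. Both overlapped between groups through control liver 1, which was under knockout liver 1 in each, and both passed, with a log2 fold change of −2.62 for Plk1 (SE 0.78, adjusted p = 0.041) and −2.28 for Birc5 (SE 0.69, adjusted p = 0.0437). Aurka, Aurora kinase A of the spindle poles, stood at 2.30, 4.54 and 6.73 CPM in controls and 3.07, 1.35 and 2.66 CPM in knockouts, with control liver 1 below 2 of the knockouts, and did not pass (log2 −0.94, SE 0.43, adjusted p = 0.15). Aurkb, the kinase of the passenger complex, gave −2.16 (SE 0.77, adjusted p = 0.0723), and the spindle checkpoint gene Bub1b gave −1.51 (SE 0.53, adjusted p = 0.0695).

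Cenpe, the kinetochore motor, stood at 0.913, 3.00 and 4.13 CPM in controls and 0.623, 0.336 and 0.739 CPM in knockouts, and the lowest control was above the highest knockout (log2 −2.23, SE 0.57, adjusted p = 0.0243). Stmn1, stathmin, which destabilises microtubules, stood at 8.57, 14.4 and 17.9 CPM in controls and 5.08, 3.51 and 9.06 CPM in knockouts, with knockout liver 3 above control liver 1 (log2 −1.21, SE 0.37, adjusted p = 0.0443). Cdc20, the activator of the anaphase-promoting complex, stood at 1.35, 4.54 and 9.08 CPM in controls and 2.63, 0.817 and 1.18 CPM in knockouts. Knockout liver 1 exceeded control liver 1 for Cdc20, which did not pass (log2 −1.68, SE 0.67, adjusted p = 0.101), although DESeq2 gave it an adjusted p of 0.0222. The spindle and cytokinesis genes Kif11, Kif20a, Tpx2, Nusap1 and Prc1 and the transcription factor gene Foxm1 did not pass, with log2 fold changes from −2.55 for Tpx2 (SE 0.87, adjusted p = 0.063) to −0.89 for Nusap1 (SE 0.54, adjusted p = 0.263). Per length, Stmn1 was the most abundant G2 and M gene in controls, with means of 7.07 RPKM in controls and 3.06 RPKM in knockouts, and in the controls Ccnd1 and Pcna (13.1 RPKM) were above it.

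**Figure D3:**
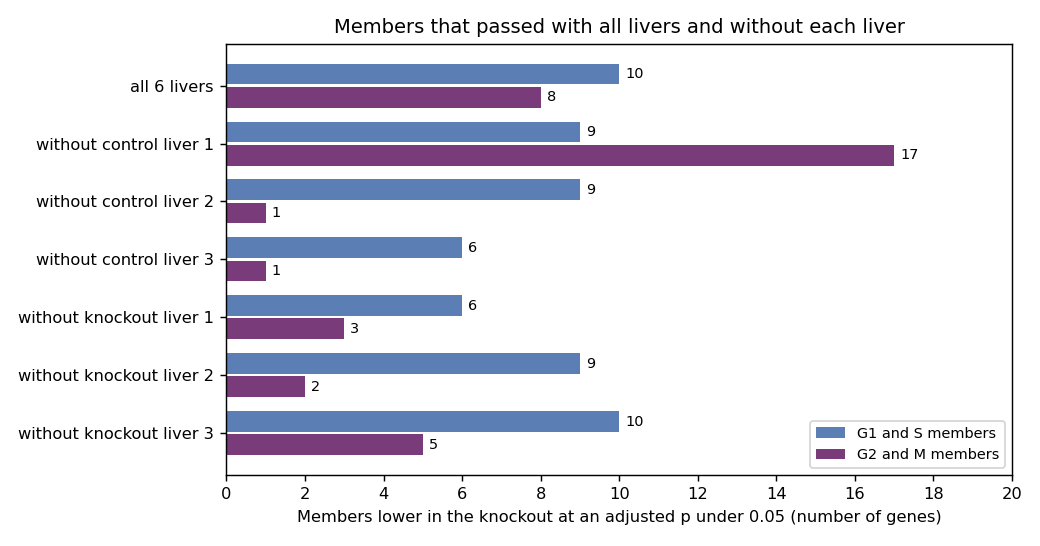
Number of G1 and S genes (upper bar of each pair) and of G2 and M genes (lower bar) lower in the knockout livers at an adjusted p under 0.05, with all 6 livers and with each liver left out. The G2 and M count goes from 8 to 17 without control liver 1 and to 1 without control liver 2 or control liver 3, and the G1 and S count runs from 6 to 10.

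Which G2 and M genes passed rested on single livers. Without control liver 1, 17 of 21 were lower, with Bub1 among those tested, where 9.05% of all genes tested were lower. The count was 1 of 20 without control liver 2 (7.90% of all genes) and 1 of 20 without control liver 3 (8.68%), which is below the share of all genes. It was 3 of 21 without knockout liver 1 (7.78%), 2 of 21 without knockout liver 2 (10.8%), near that share, and 5 of 21 without knockout liver 3 (12.1%). Cdk1 was the 1 gene of the 8 called under each of these 6 omissions. In G1 and S, the count was 6 without control liver 3 or knockout liver 1 and 9 or 10 under the other omissions. Ccnd2, Ccne1, Ccne2, E2f2, Gins2 and Chaf1a were called under all 6. Of these, E2f2, Gins2 and Chaf1a had 2, 0 and 2 knockout livers at the filter level, so the control livers carried them into the test. Gins2 and Chaf1a did not reach 50 counts in 3 libraries, so they were not tested under that stricter filter. With DESeq2 the G2 and M count was 15, where 14.3% of all genes tested were lower, and with limma-voom it was 4, where 13.4% were. With no filter on low counts, all 21 were tested and 19 were lower, where 8.30% of all genes were. With library totals 15 were lower, where 25.0% of all genes were.

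The promoters of the G2 and M genes with the smallest p and a window are shown in the same way, from 200 bases before to 30 after the start site.
Cdk1 (chr10:69352883-69353112, minus strand): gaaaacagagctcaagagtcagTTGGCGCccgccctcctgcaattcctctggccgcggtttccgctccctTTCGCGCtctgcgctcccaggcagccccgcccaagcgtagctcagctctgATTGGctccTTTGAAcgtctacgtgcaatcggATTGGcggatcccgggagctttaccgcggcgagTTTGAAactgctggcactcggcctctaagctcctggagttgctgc
Cenpe (chr3:135212363-135212592, plus strand): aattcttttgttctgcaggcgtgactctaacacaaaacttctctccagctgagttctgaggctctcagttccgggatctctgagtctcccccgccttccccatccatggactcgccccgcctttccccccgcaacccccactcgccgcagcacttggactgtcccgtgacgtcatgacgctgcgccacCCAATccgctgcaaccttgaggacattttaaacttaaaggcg
Top2a (chr11:99024160-99024389, minus strand): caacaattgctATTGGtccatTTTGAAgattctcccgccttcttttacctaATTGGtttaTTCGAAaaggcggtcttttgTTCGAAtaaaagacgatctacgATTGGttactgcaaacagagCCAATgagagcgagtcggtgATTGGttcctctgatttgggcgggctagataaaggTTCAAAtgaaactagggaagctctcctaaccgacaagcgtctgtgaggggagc
The Cdk1 stretch holds 2 E2F-type sites, 2 CHR elements and 2 CCAAT boxes read as ATTGG on the other strand, the Cenpe stretch holds 1 CCAAT box, and the Top2a stretch holds 4 CHR elements and 5 CCAAT boxes, the last CHR read as TTCAAA on the other strand. Over the class, 11 of 15 genes with a window (73.3%) held a CHR element, 3 (20%) an E2F-type site and 13 (86.7%) a CCAAT box, beside 19.2%, 9.57% and 37.4% of all windows. From the first base of the nearest CCAAT box before it to the first base of a CHR element there were 9 to 153 bases over all such pairs in the class. In the printed Cdk1 stretch the distances were 9 and 33 bases. The calls can be set beside these letters over the whole table. Of 1810 tested genes with a CHR element in any window 14.4% were called lower, of 1984 with an E2F-type site 11.7% and of all 10803 tested genes with a window 13.4%. A match is a string of letters and no evidence of binding.

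**Figure D4:**
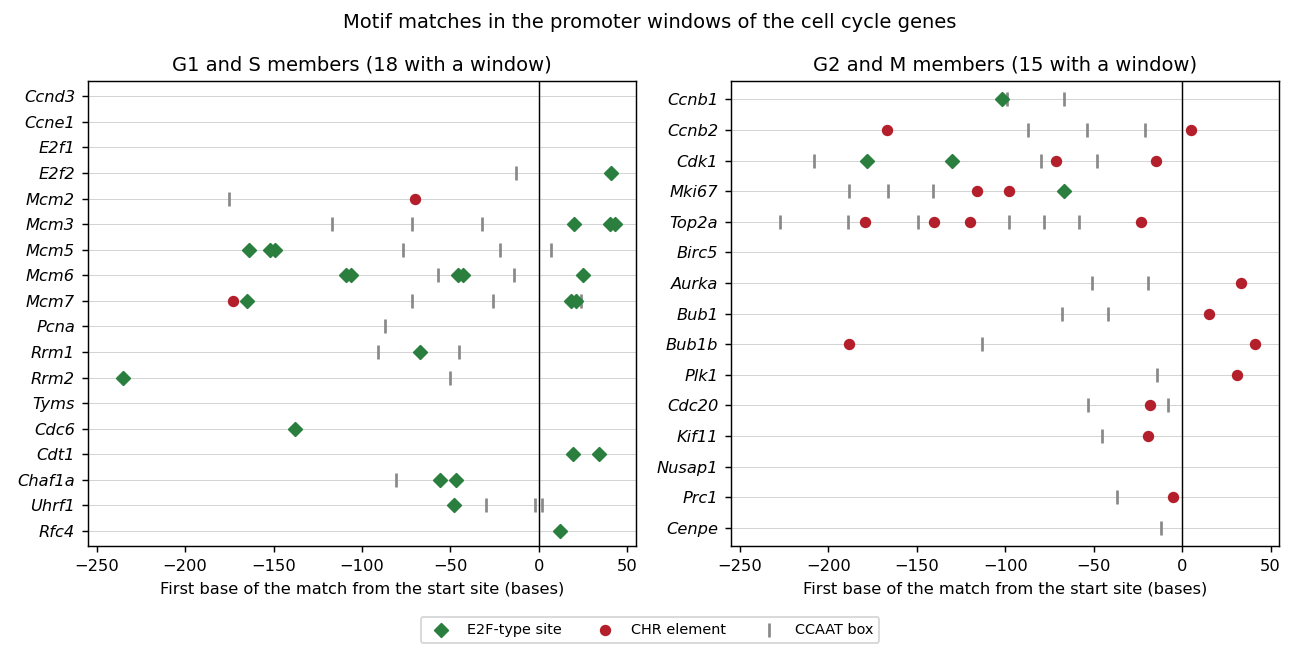
Positions of E2F-type sites, CHR elements and CCAAT boxes, on either strand, in the promoter windows of 18 G1 and S genes and 15 G2 and M genes, in bases from the start site (vertical line). E2F-type sites lie in 12 of the 18 windows on the left and CHR elements in 11 of the 15 on the right.

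Summed over its genes, each class had a different balance across livers. The 21 G2 and M genes added up to 34.1, 98.6 and 145.5 CPM in the controls and to 33.5, 14.0 and 32.7 CPM in the knockouts, so control liver 1 was at the level of 2 of the knockouts. The 23 G1 and S genes added up to 342, 352 and 473 CPM in the controls and to 384, 263 and 305 CPM in the knockouts, which overlap, since knockout liver 1 was above controls 1 and 2. Without the 3 abundant D-type cyclins the other 20 added up to 147, 158.5 and 219 CPM in the controls and to 119.9, 88.7 and 127 CPM in the knockouts, with no overlap. The ratio of the G2 and M sum to this G1 and S sum was 0.232, 0.622 and 0.664 in the controls and 0.280, 0.158 and 0.258 in the knockouts. By this ratio control liver 1 lay among the knockouts, and controls 2 and 3 stood well apart from the other 4 livers. The G2 and M sums rest on 292 counts in knockout liver 2, the fewest, to 3350 counts in control liver 3, the most.

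**Figure D5:**
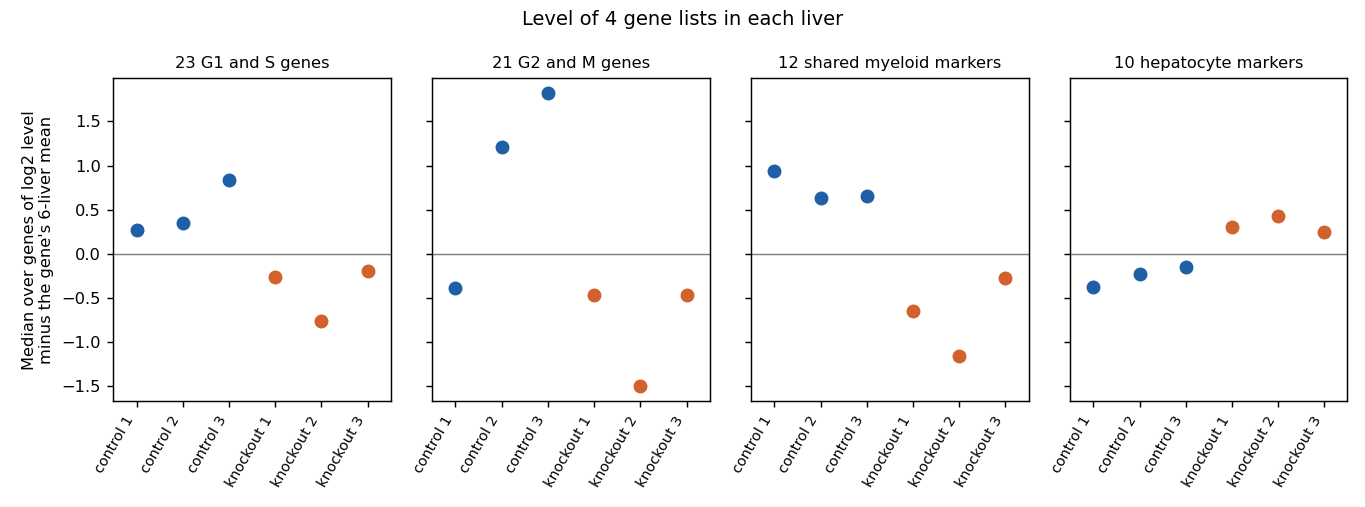
Median over the genes of a list of the log2 level in a liver minus the gene's mean over the 6 livers, for 23 G1 and S genes, 21 G2 and M genes, 12 shared myeloid markers and 10 hepatocyte markers (blue, control livers; orange, knockout livers). For the G2 and M genes control liver 1 (−0.39) sits next to knockout livers 1 and 3 (both −0.47), whereas for the myeloid markers it is the highest liver (0.94).

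Most markers of myeloid cells were lower in the knockout livers too. For the counts of markers that follow, 13.1% of all genes tested were lower and 11.9% higher. Of 12 shared myeloid markers 11 were lower, and their sum was 688 to 746 CPM in controls and 180.1 to 354 CPM in knockouts. This count and this sum include Lyz2, at 194.9, 217.9 and 234.8 CPM in controls and 41.3, 36.9 and 66.5 CPM in knockouts. The knockouts carry the altered Lyz2 allele that expresses Cre, so the Lyz2 level cannot be read as a measure of myeloid cells alone. The 8 Kupffer cell markers (6 lower) summed to 825 to 891 CPM in controls and 268 to 545 CPM in knockouts, and the 6 neutrophil markers (4 lower) to 14.9 to 29.2 CPM and 3.07 to 8.22 CPM. Mmp8, among the 4 neutrophil calls, lay at 0.0479, 0.288 and 0.148 CPM in knockouts, under the filter level of 0.456 CPM. The control livers therefore carried Mmp8 into the test. The 8 T and NK cell markers (3 tested, adjusted p from 0.0596 to 0.735) summed to 3.96 to 5.39 CPM in controls and 2.60 to 4.78 CPM in knockouts, and the 6 B and plasma cell markers (4 tested, Cd22 lower) to 6.43 to 6.98 CPM and 3.61 to 5.47 CPM. Control liver 1, the lowest control for the G2 and M genes, had the highest sum of shared myeloid and neutrophil markers of all 6 livers. For the Kupffer markers control livers 1 and 2 were about level (891.1 and 886.5 CPM). Knockout liver 2, the lowest knockout in 18 of 21 G2 and M genes (37.3% of all genes), had the lowest sum of shared myeloid and Kupffer markers. For the neutrophil markers the lowest sum was in knockout liver 1 (3.07 CPM, beside 5.8 CPM in knockout liver 2). Cxcr2 had 0 counts in knockout liver 1 and the B cell marker Ms4a1 had 0 in knockout liver 2. Of 6 monocyte markers 4 were lower, while their sum, nearly all of it Fn1 (log2 0.36), was 1274 to 1966 CPM in controls and 1876 to 2432 CPM in knockouts. Of 8 stellate cell markers 4 were lower, with sums of 568 to 625 CPM in controls and 412 to 435 CPM in knockouts. Of 8 endothelial markers 0 passed, with sums of 228 to 276 CPM in controls and 188 to 269 CPM in knockouts. Of 6 cholangiocyte markers 5 were tested and 0 passed, with sums of 57.0 to 60.4 CPM in controls and 50.1 to 52.9 CPM in knockouts. All 10 hepatocyte markers, the defining genes of the labelled tissue, were abundant enough to test, and 5 were higher in the knockouts. Of 8 erythroid markers 5 were higher, all globins or Alas2, while Epb42 and Slc4a1 had at most 3 counts in any liver. The part of any of these cell types in the cell cycle values was not tested.

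Other genes of the cycle were taken from lists drawn up from pathway knowledge, with earlier results of these data known. In the first 5 of these lists a smaller share passed, counting both directions, than the 25.0% of all genes tested, so the genes named from them are single values and not a result about a list. Of those named, Pkmyt1 and Dbf4 kept their calls under 3 of the 6 omissions of a liver, Ctps under 2 and Cdc25a under 5. Of 11 G1 kinase and CDC25 genes 10 were tested and 2 passed, both lower (list median −0.09), namely the S-phase phosphatase gene Cdc25a and Pkmyt1, the inhibitory kinase of CDK1. Cdc25a stood at 13.5, 12.4 and 11.3 CPM in controls and 7.04, 8.65 and 5.96 CPM in knockouts, without overlap (log2 −0.78, SE 0.17, adjusted p = 0.0138). Pkmyt1 stood at 2.86, 3.14 and 3.35 CPM in controls and 1.05, 0.433 and 1.58 CPM in knockouts (a log2 fold change of −1.61, SE 0.40, adjusted p = 0.0215), and its exons share positions with Paqr4 on the other strand, as those of Cdkn1a, Rbl2, Cdc45 and Ube2c do with other genes. Of 7 CDK inhibitor genes 5 were tested and 1 passed, Cdkn1a (p21), which restrains the cycle and is a p53 target. It stood at 204, 137 and 112 CPM in controls and 37.9, 67.1 and 22.3 CPM in knockouts, with control liver 1 the highest of all and no overlap (log2 −1.83, SE 0.38, adjusted p = 0.0109).

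Of 17 pocket protein, E2F and MuvB genes 16 were tested and 2 passed (list median 0.02). Tfdp1, the dimer partner of E2F, stood at 33.5, 43.0 and 37.8 CPM in controls and 28.1, 26.0 and 27.1 CPM in knockouts (a log2 fold change of −0.49, SE 0.12, adjusted p = 0.0209). Rbl2, the pocket protein p130 of resting cells, stood at 21.5, 19.3 and 26.2 CPM in controls and 27.7, 31.3 and 33.4 CPM in knockouts (a log2 fold change of 0.46, SE 0.14, adjusted p = 0.0441). Neither gene overlapped between the groups, Tfdp1 being lower and Rbl2 higher in the knockouts, and the calls were kept under 2 of 6 omissions for Tfdp1 and 1 of 6 for Rbl2. With library totals Rbl2 gave 0.21 (adjusted p = 0.269).

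Of 31 other origin and fork genes 30 were tested, 4 were lower, which is about the share of all genes, and 1 was higher. The kinase activator Dbf4 stood at 4.01, 7.29 and 7.82 CPM in controls and 1.87, 1.06 and 2.95 CPM in knockouts (a log2 fold change of −1.70, SE 0.39, adjusted p = 0.0163). Mcm10, a fork protein outside the MCM ring, stood at 5.83, 7.87 and 10.0 CPM in controls and 18.8, 14.0 and 27.2 CPM in knockouts, the opposite direction to Mcm5 and Mcm6, without overlap and called under all 6 omissions (log2 1.34, SE 0.27, adjusted p = 0.01). The histone chaperone gene Asf1b stood at 0.794, 0.870 and 1.04 CPM in controls and 0.240, 0.240 and 0.492 CPM in knockouts (a log2 fold change of −1.46, SE 0.41, adjusted p = 0.0323), and its call was lost with DESeq2 (adjusted p = 0.0537), with no filter (0.0504) and under 5 of 6 omissions (0.0644 to 0.114). The helicase cofactor gene Cdc45 (log2 −1.22, SE 0.37, adjusted p = 0.0442) and the polymerase delta gene Pold1 (log2 −0.85, SE 0.26, adjusted p = 0.0453) were also lower, each with its call kept under 1 of 6 omissions, and Cdc45 lost it with limma-voom (adjusted p = 0.0618). In the nucleotide supply list 1 of 10 passed, the CTP synthase gene Ctps, which stood at 31.4, 22.1 and 16.3 CPM in controls and 14.4, 12.7 and 9.60 CPM in knockouts (a log2 fold change of −0.93, SE 0.25, adjusted p = 0.027).

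Of 36 further mitotic and cytokinesis genes, 30 were tested, 13 were lower, above the 13.1% of all genes, and 1 was higher, with a median log2 fold change of −1.55. The caution on the filter holds here too, since genes of this list could enter the test through the control livers alone. Ckap2, for example, lay under the filter level of 0.456 CPM in knockout liver 2. How many of the 13 were carried in this way was not counted. As among the members, control livers 2 and 3 were above every knockout in 31 of the 36 and control liver 1 was the lowest control in 31. The spindle-associated gene Ckap2 stood at 2.74, 4.30 and 5.65 CPM in controls and 0.766, 0.144 and 0.936 CPM in knockouts (a log2 fold change of −2.77, SE 0.52, adjusted p = 0.00745). The kinetochore gene Spc25 stood at 2.82, 5.60 and 6.78 CPM in controls and 1.68, 1.06 and 1.77 CPM in knockouts (a log2 fold change of −1.75, SE 0.37, adjusted p = 0.0117). The anaphase ubiquitin-conjugating enzyme gene Ube2c stood at 1.87, 5.60 and 8.52 CPM in controls and 1.15, 0.481 and 1.08 CPM in knockouts (a log2 fold change of −2.55, SE 0.57, adjusted p = 0.0141). None of these genes overlapped between the groups, and all were called under each of the 6 omissions. They were named for having the smallest p among the passing genes, and the omissions are not given here for the other calls of the list. The exception in direction was Ccnf, cyclin F, which marks cell cycle proteins for destruction. Ccnf stood at 9.68, 9.37 and 9.95 CPM in controls and 15.8, 16.0 and 16.4 CPM in knockouts, a rise with very little spread in either group (log2 0.73, SE 0.12, adjusted p = 0.0037).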

How the data were processed

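Bulk RNA sequencing of 6 mouse livers was analysed, 1 library per mouse. Polyadenylated RNA was captured on beads after DNase treatment and reverse transcribed from random primers, per the labels' protocols. The authors deposited raw counts of reads for each Ensembl gene. Their processing notes name featureCounts 1.5.0-p3, HISAT2 2.0.5, StringTie 1.3.3b and GRCm38.p6, without a role. The strand setting and the handling of reads that map to several places are not given in the sources used here, so members with annotated pseudogene or related copies (Ccnd3, Pcna, Tyms, Ccnb1, Ccnb2 and Stmn1) are uncertain.

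Symbols and coordinates came from GENCODE M21 (GRCm38), which matched 54495 of 54532 genes. Genes with 10 counts (0.456 CPM without TMM factors) in 3 libraries were kept with filterByExpr and scaled with TMM factors. The test was the quasi-likelihood one of edgeR 4.0.16 (R 4.3.3) with no covariate, with Benjamini-Hochberg adjustment over all genes tested. Adjusted p-values are from edgeR where no other tool is given. The SE of a log2 fold change was obtained from the F statistic. RPKM divides CPM by the exon length. Groups followed the labels. Chi-square per degree of freedom between livers of a group was 26.9 to 81.9, so no library was a copy of another. Depths are in the report, and intervals cover counting error only.

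The members and all lists were chosen with earlier results of these data known. Values in every liver are given for members that passed and for the 4 of each class with the highest mean CPM that did not, with Rrm2 added after its values were seen. In each other list the genes named are the passing ones of smallest p, up to 4, or 2 where none passed, and Pold1 completes a count. No p is given for a class as a whole. Promoters were printed for the 3 members per class with the smallest p and a RefSeq window. The last 20 bases of the window lay in a GENCODE transcript for 28 of 33. Alternatives were DESeq2 1.42.0, limma-voom (limma 3.58.1), relative log expression (RLE) factors, library totals, no filter, 50 counts in 3 libraries, a block for the mouse number, thresholds of 0.01 and 0.1, and omission of each liver. The steps were first tested on simulated counts.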

Additional observations from a re-analysis of the deposited data

How the results depend on the processing

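Over all genes, 1515 passed at an adjusted p under 0.01, and 2275 to 3413 with each liver left out (2275 when control liver 2 was omitted and 2296 for knockout liver 1). The G1 and S count of 10 became 6 with at least 50 counts in 3 libraries, where 19 of 23 were tested, 5 at an adjusted p under 0.01, and 6 to 10 with each liver left out, and rose to 13 with DESeq2, unfiltered or at an adjusted p under 0.1 and to 15 with library totals. The G2 and M count of 8 became 15 with DESeq2, 4 with limma-voom, 19 of 21 unfiltered, 15 with library totals and 4 of the 7 tested with at least 50 counts. It was 15 at an adjusted p under 0.1 and 0 under 0.01 in edgeR, with 17 at an unadjusted p under 0.05, where DESeq2 gave 18 and limma-voom 9. It ran from 1 to 17 with each liver left out, as given above, where each group left with fewer livers borrows its spread from the other. The cause of these shifts was not tested, beyond the smaller number of genes tested under the stricter filter. Ccnd1 passed in none of the alternatives. Its log2 fold change turned to −0.21 with library totals and ran from −0.25 to 0.23 with each liver left out, below 0 when control liver 1 (−0.02), control liver 2 (−0.02) or knockout liver 1 was the one omitted.

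No pairing of the livers by mouse number was seen (correlation of deviations −0.0271, 0.0441 and −0.0185 for numbers 1, 2 and 3). With so few livers in each group this check cannot exclude a pairing. With the number as a replicate block 3086 genes passed, among them 11 G1 and S genes and 5 G2 and M genes. Depth limited the rare members, since Gins2, Cdc6, Uhrf1, Ccnb1, Aurkb, Bub1 and Tpx2 had 3 counts or fewer in at least 1 knockout liver.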

Other observations

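Of 16 genes for hepatocyte growth factors, their receptors and early response genes, 15 were tested, 7 were lower and Met was higher, where 13.1% of all genes tested were lower and 11.9% higher. The list had 11 values below 0 among the 15, with a median log2 fold change of −0.89. Ccn1, a matrix protein induced by growth factors and YAP, stood at 41.6, 39.6 and 37.8 CPM in controls and 8.29, 8.27 and 11.1 CPM in knockouts (a log2 fold change of −2.11, SE 0.14, adjusted p = 0.000179). Ccn2, connective tissue growth factor, stood at 37.0, 22.1 and 19.5 CPM in controls and 4.60, 7.31 and 5.81 CPM in knockouts (a log2 fold change of −2.15, SE 0.27, adjusted p = 0.0015). The groups did not overlap for either gene. The EGF receptor ligand gene Areg stood at 11.9, 7.78 and 3.74 CPM in controls and 0.766, 0.673 and 0.591 CPM in knockouts (a log2 fold change of −3.52, SE 0.45, adjusted p = 0.00151). A second ligand gene, Hbegf, stood at 5.59, 7.10 and 4.21 CPM in controls and 1.44, 1.63 and 1.43 CPM in knockouts (a log2 fold change of −1.90, SE 0.26, adjusted p = 0.002). Areg was highest in control liver 1, the lowest control for all 21 G2 and M genes, and Hbegf was highest in control liver 2. Over the 16 genes the median log2 deviation from the 6-liver mean was 0.44, 0.49 and 0.23 in controls 1 to 3. It was −0.55, −0.72 and −0.48 in knockouts 1 to 3. The part of these genes in the cell cycle values was not tested. Tgfa, Jun and Fos were also lower, and the calls on all 7 held under each of the 6 omissions, whereas Met kept its call under 2.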
